A study of Mus musculus with 8 samples.

Results

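A set of 9 genes of cytokine signaling were followed across 8 mouse B cell libraries: 6 STAT transcription factor genes (Stat2, Stat3, Stat4, Stat5a, Stat5b and Stat6) and 3 feedback inhibitor genes (Socs1, Socs3 and Cish). They were taken by gene symbol, and all 9 are among the 55401 genes that each count file lists. There were 4 groups with 2 libraries each. One cell type was the germinal center B cell, sorted from spleen by FACS, and the other was the activated B cell, obtained by enriching B cells of the spleen on beads and activating them. Both were taken from mice of genotype WT and from mice labelled Jmjd1c B KO (KO), all of the C57BL/6 strain. The product of Jmjd1c belongs to the Jumonji family of histone demethylases. STAT3 is of interest because it has been proposed as a protein that JMJD1C acts on in B cells. The sources used here do not give the deleted exons, the means of deletion, the animals' age, any immunization or the stimulus. No label ties replicates to separate mice, so each p-value reflects the spread between these libraries alone, which may be technical.

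STAT proteins carry signals from cytokine receptors to the nucleus. Receptor-bound Janus kinases (JAKs) phosphorylate them, they pair and enter the nucleus, and they bind short palindromic DNA motifs near their target genes. SOCS proteins and CIS, the product of Cish, are themselves induced by STATs and shut the receptors down, so their transcripts are often used as a readout of recent signaling. In B cells STAT6 serves interleukin 4, STAT3 serves interleukins 6, 10 and 21, STAT5 serves interleukins 2 and 7, STAT2 serves type I interferon, and STAT4 is best known from interleukin 12 signaling in T and NK cells.

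Promoter sequences are shown for the 4 members whose upstream windows held a STAT or interferon motif. All 9 members had an entry in the RefSeq promoter table (GRCm38.p6), with 12 start sites in all, and the 250 bases before each start were searched on both strands for TTCNNNGAA (the STAT motif), for TTC and GAA spaced by 4 bases of any kind (the spacing that STAT6 also binds) and for GAAA repeated after 2 bases of any kind (the core of the interferon response element). Capitals mark every match, and no match overlapped one of another motif in the sequences shown. Among 32817 windows of the same length, 7.02%, 5.85% and 2.97% held these motifs. The Stat2 window (chr10:128270248-128270497, plus strand) held an interferon core 222 bases before the start, read on the opposite strand, and a STAT6-type match 210 bases before it. The Socs1 window (chr16:10785537-10785786, minus strand) held 2 overlapping interferon cores that begin 83 and 77 bases before the start. For Stat4, 30 bases around an interferon core 97 bases before the second of its 2 listed starts are given (chr1:52008133-52008162, plus strand). For Socs3, 30 bases around a STAT motif 154 bases before the start are given (chr11:117969501-117969530, minus strand). The Stat4 and Socs3 stretches both lie inside the gene spans given in the next paragraph, which come from GENCODE and begin further upstream. Of the 250 bases of the Socs3 window, 77 are Socs3 exon in GENCODE.
Stat2: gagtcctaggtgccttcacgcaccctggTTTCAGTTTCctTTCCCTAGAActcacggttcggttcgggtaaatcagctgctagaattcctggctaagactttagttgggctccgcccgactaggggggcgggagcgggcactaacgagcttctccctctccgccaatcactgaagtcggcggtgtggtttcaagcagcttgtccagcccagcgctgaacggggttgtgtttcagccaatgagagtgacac
Socs1: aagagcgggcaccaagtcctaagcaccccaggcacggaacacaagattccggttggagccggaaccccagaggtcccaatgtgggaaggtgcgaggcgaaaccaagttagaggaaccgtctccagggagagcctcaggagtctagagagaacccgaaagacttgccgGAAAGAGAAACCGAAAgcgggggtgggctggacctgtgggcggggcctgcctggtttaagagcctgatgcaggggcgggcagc
Stat4: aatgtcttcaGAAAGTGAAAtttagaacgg
Socs3: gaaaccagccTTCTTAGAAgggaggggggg
These matches are letters in a window, not measured binding sites.

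Stat3, Stat5a and Stat5b are neighbors on chromosome 11 of GRCm38. Stat5b (ENSMUSG00000020919.11, 100780731 to 100850724, minus strand) is followed by Stat5a (ENSMUSG00000004043.14, 100859351 to 100885169, plus strand) and Stat3 (ENSMUSG00000004040.16, 100885098 to 100939540, minus strand). The ends of Stat5a and Stat3 overlap, by 1.01% of the exon length of Stat5a, so few of their reads can be mixed. Stat5a and Stat5b encode near-identical proteins, and 8.52% and 11.0% of the 50-base stretches of their transcripts occur elsewhere among mouse transcripts, almost always in each other, so reads from these stretches are uncertain. Stat2 (128270559 to 128292849) and Stat6 (127642986 to 127660957) both lie on chromosome 10. Stat4 (chromosome 1, 51987148 to 52107189) shares 26.7% of its exon length with Gm28177 on the same strand, and Cish (chromosome 9, 107296026 to 107302784) shares 11.5% with Gm17040 and Gm17041 on the opposite strand, so levels of Stat4 and Cish may be understated or mixed. Socs3 (chromosome 11, 117966079 to 117970047) and Socs1 (chromosome 16, 10782240 to 10785536) overlap no other exon.

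The libraries held 8777425 to 11414559 counts on genes. The unit of level is the CPM, a TMM-scaled count relative to library size, and 1 CPM rests on 8.78 to 11.4 counts. Jmjd1c was lower in KO than WT cells, at 163 and 158 against 194 and 178 CPM in germinal center B cells and at 136 and 153 against 274 and 283 CPM in activated B cells (log2 fold changes -0.20 and -0.94, SE 0.04 and 0.06, adjusted p = 1.66e-05 and 1.81e-11). These counts span the whole gene, so they do not measure the deleted exons. B cell identity genes were abundant in every library, with sums of 6864 to 9673 CPM over 6 genes. The 6 germinal center markers summed to 2164 and 2165 CPM in WT germinal center B cells, 1295 and 1286 CPM in KO germinal center B cells and 142 to 149 CPM in activated B cells. Summed markers of T, NK, myeloid, dendritic, erythroid and plasma cells were higher in KO than WT libraries of both cell types. The 5 erythroid markers summed to 53.8 and 67.8 CPM in KO and 7.13 and 9.30 CPM in WT germinal center B cells, and to 1029 and 844 against 591 and 578 CPM in activated B cells. The 7 T cell markers summed to 10.4 and 12.6 CPM in KO and 1.57 and 2.46 CPM in WT germinal center B cells, where Cd3e had no count, and to 22.1 to 24.1 and 14.1 to 16.3 CPM in KO and WT activated B cells. The 7 monocyte and macrophage markers summed to 116 and 133 against 44.5 and 43.9 CPM in germinal center B cells, and to 1447 and 1336 against 891 and 843 CPM in activated B cells. In bulk libraries, fewer cells of a type and less RNA per cell cannot be told apart.

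Levels of different genes were compared per kilobase of exon. In WT germinal center B cells Stat6 was the highest of the 9 members, at 34.0 ± 1.23 CPM per kb (SD, n = 2), followed by Stat2 (27.4 ± 0.404), Stat5b (22.5 ± 0.353) and Stat3 (18.5 ± 0.612). Stat5a (7.75 ± 0.100) and Socs1 (6.65 ± 0.267) came next, and Socs3 (1.99 ± 0.304), Stat4 (1.16 ± 0.204) and Cish (0.0163 ± 0.0231) were lowest. The libraries of neighbors in this order did not overlap. In WT activated B cells Stat6 stood further ahead, at 83.6 ± 0.0817 CPM per kb, and Stat3 (26.9 ± 0.353), Stat5b (25.9 ± 0.648) and Stat2 (22.9 ± 0.607) lay close together. Stat4, lower than Stat5a in WT germinal center B cells, stood ahead of it here, at 13.9 ± 1.36 against 7.83 ± 0.456 CPM per kb. At the low end, Socs1 (0.249 and 0.682) and Cish (0.386 and 0.479) overlapped. In KO germinal center B cells Stat2 (45.6 and 43.4 CPM per kb) reached Stat6 (46.2 and 44.9), and their libraries overlapped. The summed level of the 6 STAT genes was 110 and 113 CPM per kb in WT and 139 and 137 in KO germinal center B cells, against 179 to 184 in all 4 activated libraries.

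**Figure D1:**
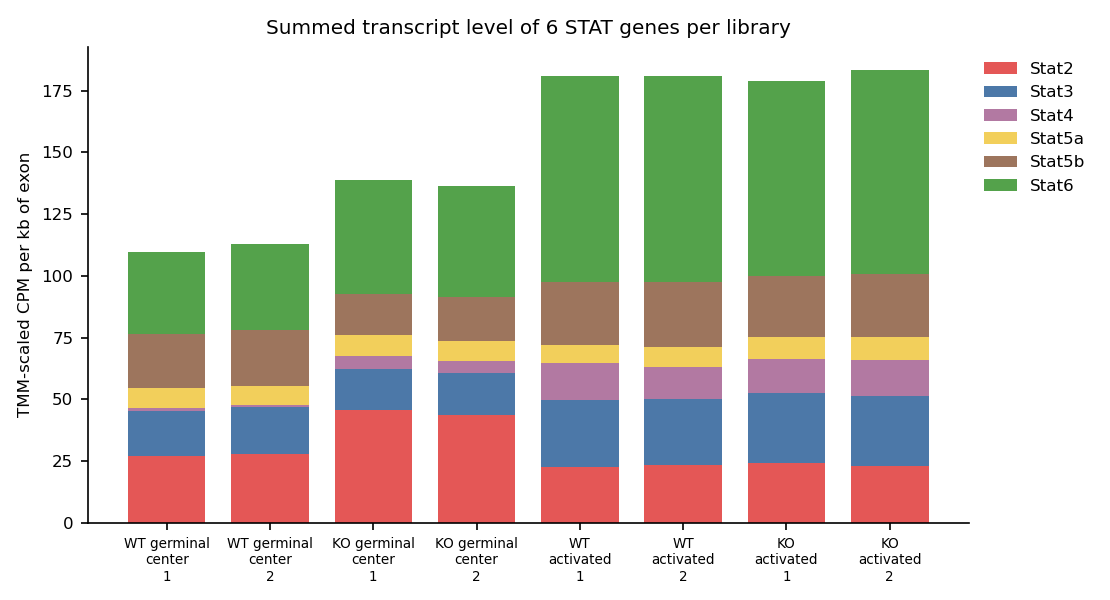
Stacked bars give the TMM-scaled CPM per kb of exon of 6 STAT genes (vertical axis) in each of the 8 libraries (horizontal axis). The Stat2 and Stat6 segments are taller in KO than WT germinal center B cells, and the 4 activated libraries share one profile dominated by Stat6, at 79.1 to 83.6 CPM per kb.

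Stat2 took 24.7% and 24.5% of this summed level in WT and 32.8% and 31.8% in KO germinal center B cells. Stat5b went the other way, from 20.3% and 20.1% in WT to 12.1% and 13.3% in KO. Stat3 took 16.5% and 16.8% in WT and 12.1% and 12.7% in KO. In activated B cells KO and WT shares of Stat2 overlapped, at 13.5% and 12.5% against 12.4% and 12.9%. Such shares do not depend on library scaling, but they depend on the other members and on the exon lengths used.

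The first comparison asked how members differ between WT germinal center and WT activated B cells. Socs1 was far higher in germinal center B cells, while Stat4, Stat6, Cish, Socs3, Stat3 and Stat5b were lower there and Stat2 was slightly higher. Of 9 members, 8 passed at an adjusted p under 0.05 (edgeR quasi-likelihood test, Benjamini-Hochberg adjustment over all genes), 2 as higher and 6 as lower, in a comparison where 82.2% of 14426 genes passed (40.3% higher and 41.8% lower). The members' median log2 fold change was -0.54, against -0.03 over all genes tested. Cish and Socs1 passed the filter on low counts only through the cell type in which they are high, so a difference was built into their inclusion.

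Socs1, which encodes an inhibitor that binds JAKs directly, stood at 18.8 and 19.9 CPM in WT germinal center B cells and at 0.723 and 1.98 CPM in WT activated B cells. The cell types did not overlap, and the activated values rest on 7 and 20 counts. The log2 fold change was 3.80 (SE 0.23, adjusted p = 7.38e-39). KO libraries gave the same picture, at 20.5 and 18.7 CPM in germinal center and 1.23 and 2.02 CPM in activated B cells.

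Stat4 was at 5.04 and 3.92 CPM in WT germinal center B cells and at 57.6 and 50.2 CPM in WT activated B cells, so the activated libraries were all higher. The log2 fold change was -3.61 (SE 0.13, adjusted p = 5.43e-68). T cell markers, beside which STAT4 is usually studied, also summed to more in the activated libraries, and their part in this difference was not tested. Stat6, the transducer of interleukin 4, was at 146 and 153 CPM against 368 and 368 CPM, without overlap (log2 fold change -1.31, SE 0.05, adjusted p = 4.11e-64). Stat3 was at 173 and 181 against 259 and 254 CPM, again without overlap (log2 fold change -0.54, SE 0.05, adjusted p = 8.19e-22).

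Cish, a STAT5 target whose product blocks receptor docking sites, had 2 and 0 counts in WT germinal center B cells and 24 and 31 counts in WT activated B cells. The pooled activated level was 28.5 times the germinal center level, with a 95% counting interval of 7.52 to 241 that leaves out variation between animals. The fitted fold change passed (adjusted p = 1.34e-11), but its size depends on how a near-zero group is treated. Stat5b was at 123 and 126 against 141 and 146 CPM (log2 fold change -0.22, SE 0.05, adjusted p = 0.000135). Stat5a did not pass, at 55.8 and 54.8 against 53.6 and 58.2 CPM (log2 fold change -0.03, SE 0.07, adjusted p = 0.743).

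Stat2, which joins IRF9 in the interferon-activated complex ISGF3, was at 161 and 164 CPM in WT germinal center and 133 and 138 CPM in WT activated B cells (log2 fold change 0.25, SE 0.05, adjusted p = 7.44e-06). Upper-quartile scaling moved the median of all genes by -0.15, and with it Stat2 no longer passed (0.10, adjusted p = 0.0631) while Stat5a passed as lower in germinal center B cells (-0.17, adjusted p = 0.0259). Socs3, which inhibits gp130-type receptors, was at 5.14 and 6.38 against 7.64 and 11.1 CPM (log2 fold change -0.71, SE 0.19, adjusted p = 0.00046). That call rests on the second WT activated library, without which it was -0.42 (adjusted p = 0.105).

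**Figure D2:**
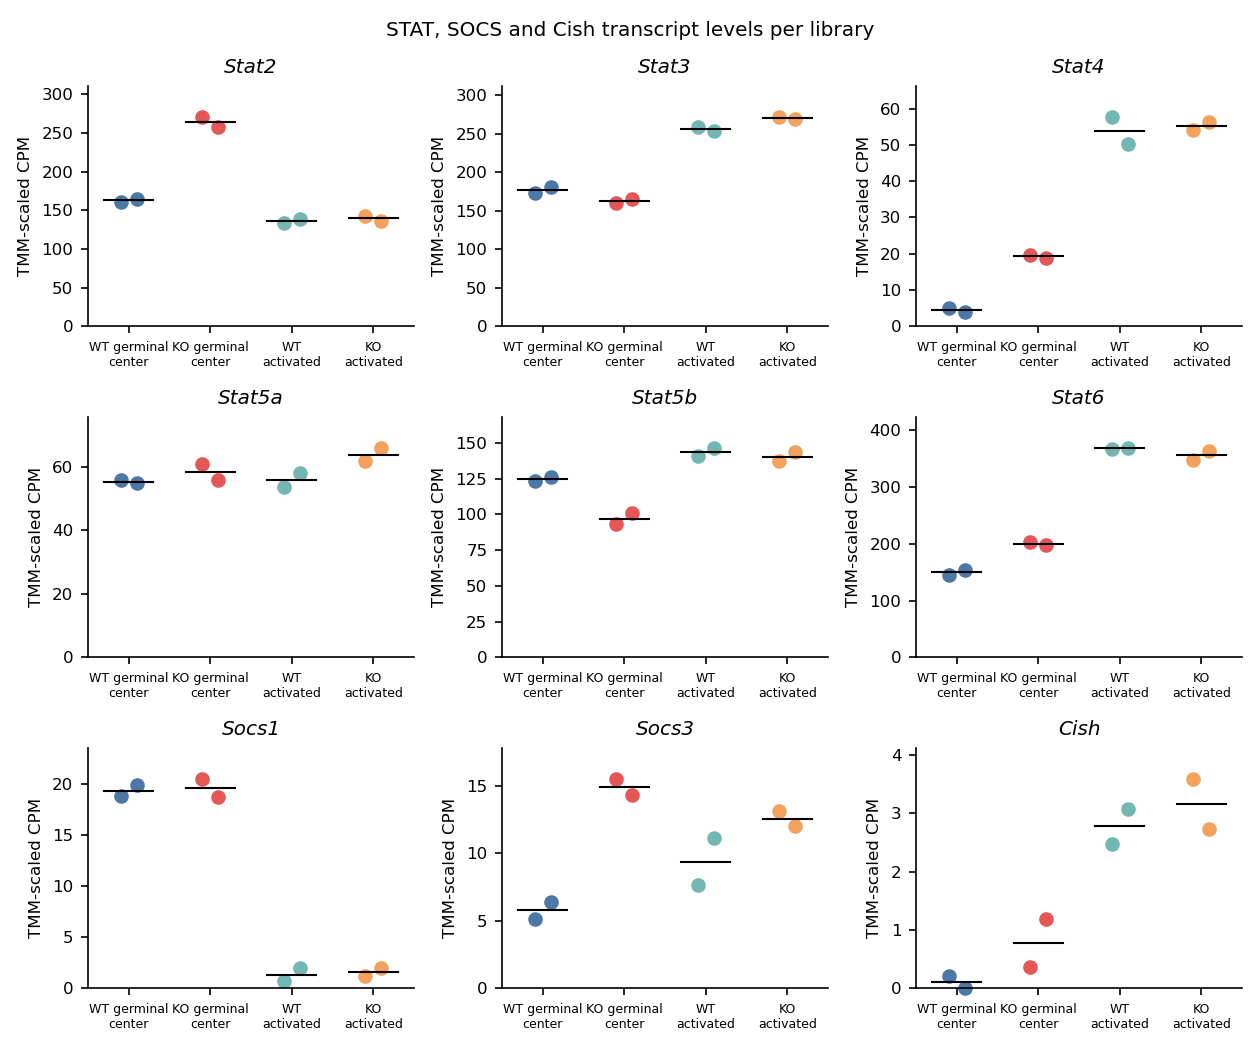
Each panel plots the TMM-scaled CPM (vertical axis, from 0) of 1 gene in the 4 groups, with points for the 2 libraries of a group and a line for their mean. Within germinal center B cells Stat2, Stat4, Stat6 and Socs3 sit higher in KO and Stat5b lower, and Socs1 lies at 18.7 to 20.5 CPM in both genotypes.

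The second comparison set KO against WT within germinal center B cells. Stat4, Socs3, Stat2 and Stat6 were higher in KO, Stat5b and, by a small margin, Stat3 were lower, and Stat5a and Socs1 did not pass. Of the 8 members tested, 6 passed, in a comparison where 50.2% of 13350 genes passed (25.1% higher and 25.1% lower). The members' median log2 fold change was 0.25, against -0.0044 over all genes tested. Cish had too few counts to be tested here. All 6 germinal center markers fell in KO, and mitochondrial transcripts took 9.20% and 9.52% of counts in KO and 5.51% and 5.27% in WT. With library sizes that leave out mitochondrial and immunoglobulin genes no member changed its call, and the part of the markers in the member results was not tested.

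Stat4 was at 19.7 and 18.9 CPM in KO and 5.04 and 3.92 CPM in WT germinal center B cells, from 162 and 159 against 48 and 43 counts. All KO values lay above all WT values, and still below the 50.2 to 57.6 CPM of activated B cells. The log2 fold change was 2.12 (SE 0.17, adjusted p = 2.17e-32), and it was 1.93 to 2.30 when each library was left out in turn. All 3 T cell markers that could be tested also rose in KO, where 25.1% of all genes passed as higher. Summed levels of the T cell markers are given above, and their part in the Stat4 difference was not tested. WT counts were 1 and 3 for Cd4, 3 and 8 for Trac and 6 and 12 for Cd5. These 3 markers passed the filter on low counts only through KO, so a rise was built into their inclusion. Of the 4 NK cell markers, none had enough counts to be tested, and their sums were 0.487 and 0.357 CPM in KO and 0.315 and 0.0912 CPM in WT.

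Stat2 was at 270 and 257 CPM in KO and 161 and 164 CPM in WT germinal center B cells, without overlap. The log2 fold change was 0.70 (SE 0.04, adjusted p = 2.9e-61), and Stat2 in KO germinal center B cells exceeded the level in every other group. Stat6 was at 203 and 198 CPM in KO and 146 and 153 CPM in WT, also without overlap (log2 fold change 0.42, SE 0.04, adjusted p = 7.32e-21). For both genes the range over left-out libraries stayed close, at 0.67 to 0.74 for Stat2 and 0.39 to 0.46 for Stat6.

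Socs3 was at 15.5 and 14.3 CPM in KO and 5.14 and 6.38 CPM in WT germinal center B cells, from 127 and 120 against 49 and 70 counts. The groups did not overlap, and the log2 fold change was 1.36 (SE 0.18, adjusted p = 7.88e-14). The 4 neutrophil markers summed to 0.974 and 0.476 CPM in KO and were all at 0 in WT. Of 7 monocyte and macrophage markers 6 rose, where 25.1% of all genes passed as higher. Among these markers, Lyz2 (WT counts 4 and 2), C1qa (1 and 2) and C1qb (3 and 1) passed the filter on low counts only through KO, so their rise was built in. The part of the neutrophil, monocyte and macrophage markers in the Socs3 difference was not tested. Socs1 was at 20.5 and 18.7 against 18.8 and 19.9 CPM, and the genotypes overlapped (log2 fold change 0.02, SE 0.12, adjusted p = 0.919). Cish had 3 and 10 counts in KO and 2 and 0 in WT libraries, a ratio of 8.02 with a 95% counting interval of 1.82 to 73.2. The nearest KO and WT libraries had 3 and 2 counts, and the interval covers counting error only.

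Stat3 was at 160 and 165 CPM in KO and 173 and 181 CPM in WT germinal center B cells. The groups did not overlap, but the difference was small, a change of -7.93% (log2 fold change -0.12, SE 0.04, adjusted p = 0.0171). The call was lost without the first KO library (-0.09, adjusted p = 0.191), without the second WT library (-0.09, adjusted p = 0.172) and in DESeq2 (-0.12, adjusted p = 0.206). These values concern the transcript only, and the protein and its modifications were not measured.

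Stat5b was at 93.2 and 101 CPM in KO and 123 and 126 CPM in WT germinal center B cells, without overlap (log2 fold change -0.36, SE 0.05, adjusted p = 2.43e-10). Its neighbor Stat5a was at 61.0 and 55.8 against 55.8 and 54.8 CPM and did not pass (log2 fold change 0.08, SE 0.07, adjusted p = 0.362). As a share of the counts of both genes within a library, which needs no scaling, Stat5a made up 39.6% (95% Wilson interval 36.9% to 42.3%) and 35.7% (33.1% to 38.3%) in KO. The WT shares were 31.2% (29.0% to 33.4%) and 30.3% (28.3% to 32.4%). The shares in KO were both above those in WT, although the intervals of the lower KO and the higher WT library overlapped slightly.

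**Figure D3:**
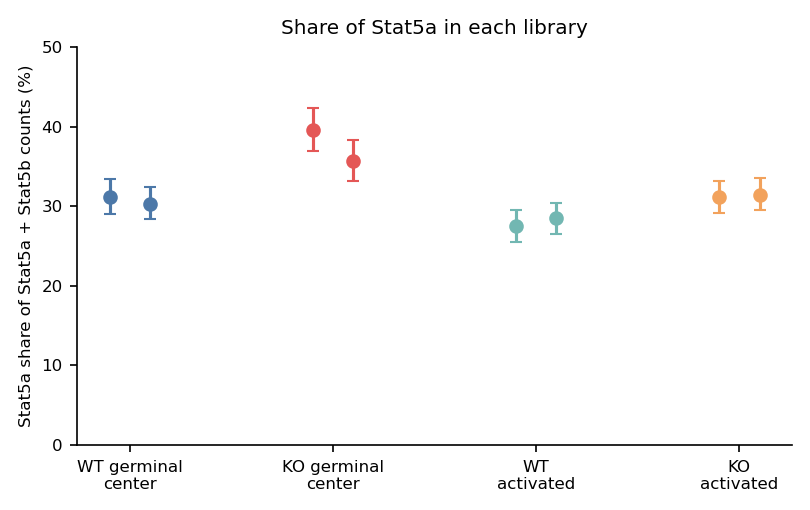
Points give the share of Stat5a in the summed counts of Stat5a and Stat5b (vertical axis, percent) for the 2 libraries of each group, with 95% Wilson intervals that cover counting error only. In both cell types the KO libraries lie above the WT libraries, most clearly in germinal center B cells, at 35.7% and 39.6% against 30.3% and 31.2%.

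The third comparison set KO against WT within activated B cells. Of the 9 members tested, 0 passed by edgeR, 0 by DESeq2 and 0 by limma-voom. By edgeR 6.27% of 14110 genes passed (4.85% higher and 1.42% lower). At an unadjusted p under 0.05 by edgeR there were 2 members, Stat5a and Socs3. The shares of all genes are at an adjusted p, so this count does not compare with them. Stat5a was at 61.9 and 65.8 CPM in KO and 53.6 and 58.2 CPM in WT, without overlap (log2 fold change 0.19, SE 0.07, adjusted p = 0.135). Its share of both Stat5 genes was 31.1% and 31.5% in KO and 27.5% and 28.5% in WT. Socs3 was at 13.1 and 12.0 against 7.64 and 11.1 CPM (log2 fold change 0.42, SE 0.17, adjusted p = 0.158), and without the second WT library it was 0.72 and passed (adjusted p = 0.016). One WT library thus decides this Socs3 result. All 4 neutrophil markers rose in the same comparison, with sums of 782 and 678 CPM in KO and 210.2 and 168 CPM in WT, and their part in the Socs3 values was not tested.

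The other members of activated B cells gave closely spaced values. Stat3 was at 271 and 269 CPM in KO and 259 and 254 CPM in WT, without overlap but with a log2 fold change of only 0.08 (SE 0.05, adjusted p = 0.455). Stat2 was at 143 and 136 against 133 and 138 CPM, and Stat4 at 54.1 and 56.3 against 57.6 and 50.2 CPM, and in both genes the genotypes overlapped. Stat6 was at 348 and 364 against 368 and 368 CPM (log2 fold change -0.05, SE 0.05, adjusted p = 0.724). Stat5b was at 137 and 143 against 141 and 146 CPM. Socs1 had 12 and 20 against 7 and 20 counts and Cish 35 and 27 against 24 and 31 counts, too few to tell small differences from counting error.

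**Figure D4:**
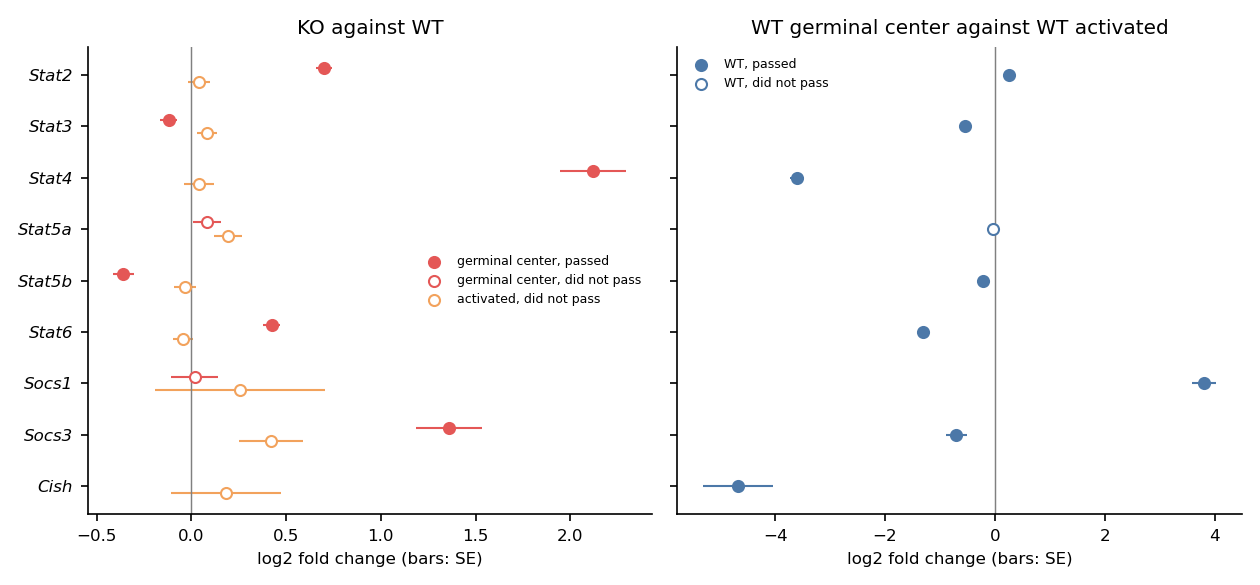
Log2 fold changes (horizontal axes) with their SE as bars for each member, KO against WT in both cell types on the left and WT germinal center against WT activated B cells on the right, with filled points for adjusted p under 0.05. On the left the passing germinal center values run from -0.36 (Stat5b) to 2.12 (Stat4) while no activated point passed, the furthest from 0 being Socs3 at 0.42. The Cish point on the right rests on 2 counts in germinal center B cells.

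The fourth comparison asked whether the KO effect differs between the cell types, with all 8 libraries in 1 fit. Of 9 members, 7 passed, 5 with a higher and 2 with a lower KO effect in germinal center B cells, in a comparison where 31.2% of 14992 genes passed (17.5% higher and 13.8% lower). Stat4 (2.08, SE 0.18, adjusted p = 1.36e-17), Stat2 (0.66, SE 0.07, adjusted p = 7.57e-13) and Stat6 (0.47, SE 0.07, adjusted p = 2.07e-08) had the more positive effect in germinal center B cells, and Stat5b the more negative (-0.33, SE 0.08, adjusted p = 0.000527). These 4 passed with every library left out in turn. Socs3 (0.94, SE 0.24, adjusted p = 0.00117) passed, but not without the second WT activated library (0.66, adjusted p = 0.0643). Stat3 (-0.20, SE 0.07, adjusted p = 0.0186) did not pass in DESeq2 (adjusted p = 0.0526), or without the first KO germinal center (adjusted p = 0.113), second WT germinal center (adjusted p = 0.223) or second WT activated library (adjusted p = 0.0899). Stat5a (-0.11, SE 0.11, adjusted p = 0.458) and Socs1 (-0.24, SE 0.42, adjusted p = 0.725) did not pass. The Cish value passed (adjusted p = 0.0327) on 2 counts in WT germinal center B cells, and it was lost in DESeq2 (adjusted p = 0.113) and when 4 of the 8 libraries were left out singly.

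Genes around the STATs were read from 8 lists of kinases, receptors, inhibitors and targets. Several genes stand in more than 1 list. List counts are to be read against all genes tested, of which 25.1% passed as higher and 25.1% as lower in germinal center B cells (median -0.0044), and 4.85% and 1.42% in activated B cells (median 0.00062). These shares are those of edgeR at an adjusted p under 0.05, so counts at an unadjusted p do not compare with them. DESeq2 passed fewer genes in both KO comparisons, with totals given in the section on processing below, so its list counts do not compare with these shares. The 4 Janus kinase genes, which phosphorylate STATs, all passed in germinal center B cells by edgeR, where 50.2% of all genes did, and 3 of the 4 by DESeq2, with Tyk2 (log2 fold change 0.42, SE 0.05), Jak1 (0.24, SE 0.04) and Jak3 (0.23, SE 0.05) higher and Jak2 (-0.19, SE 0.05) lower in KO. Jak1 was at 457 and 461 CPM in KO and 400 and 379 CPM in WT. Among activated libraries 0 of the 4 passed by edgeR, DESeq2 or limma-voom, and 0 had an unadjusted p under 0.05. In WT cells Jak1 was lower in germinal center than activated B cells (-1.20, SE 0.05), as were Jak2 (-0.75, SE 0.05) and Tyk2 (-0.19, SE 0.06).

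Most cytokine receptor chains rose with the knockout in germinal center B cells. Of 19 chains tested there, 15 rose, 1 fell and 3 did not pass, with a median of 0.90, where 25.1% of all genes passed in each direction. The chains that rose included Il9r (2.45, SE 0.07), of the interleukin 9 receptor, and Il10ra (1.72, SE 0.06), which signals through STAT3. Il10ra was at 182 and 187 CPM in KO against 56.3 and 56.0 CPM in WT, with no overlap. Il5ra (3.03, SE 0.15), of the interleukin 5 receptor, and Ifnar1 (0.93, SE 0.07), of the type I interferon receptor, rose too. Il21r, the receptor of the follicular helper T cell cytokine interleukin 21, was the chain that fell, from 332 and 340 CPM in WT to 300 and 292 CPM in KO (-0.18, SE 0.04, adjusted p = 6.34e-06). Among activated libraries 4 of 21 chains rose, 1 fell and 16 did not pass, with a median of 0.08, where 4.85% of all genes passed as higher and 1.42% as lower. Il5ra (0.94, SE 0.07), Csf2rb (0.75, SE 0.07), Il6ra (0.38, SE 0.08) and Il10ra (0.28, SE 0.05) rose and Il9r fell (-0.35, SE 0.06). Neutrophil marker sums were 782 and 678 CPM in KO and 210.2 and 168 CPM in WT activated B cells, monocyte and macrophage sums 1447 and 1336 against 891 and 843 CPM, and in germinal center B cells the latter were 116 and 133 against 44.5 and 43.9 CPM. Their part in the receptor values was not tested. The KO effect on Il9r thus had opposite signs in the 2 cell types, with a tested difference of 2.80 (SE 0.09, adjusted p = 1.58e-47). In WT cells 18 of 22 chains were lower and 3 higher in germinal center than activated B cells, where 41.8% of all genes passed as lower and 40.3% as higher. The 3 were Il12rb1 (4.27, SE 0.42), of the interleukin 12 receptor, Il21r (0.64, SE 0.05) and Lifr (1.13, SE 0.27), of the LIF receptor. Il12rb1 had 49 and 77 counts in WT germinal center and 1 and 5 in WT activated B cells. It passed the filter on low counts only through the former, so a difference was built in. Il7r, Il13ra1 and Il12rb2 had 2 and 1, 1 and 0, and 3 and 11 counts in WT germinal center B cells. These chains passed the filter only through WT activated B cells.

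**Figure D5:**
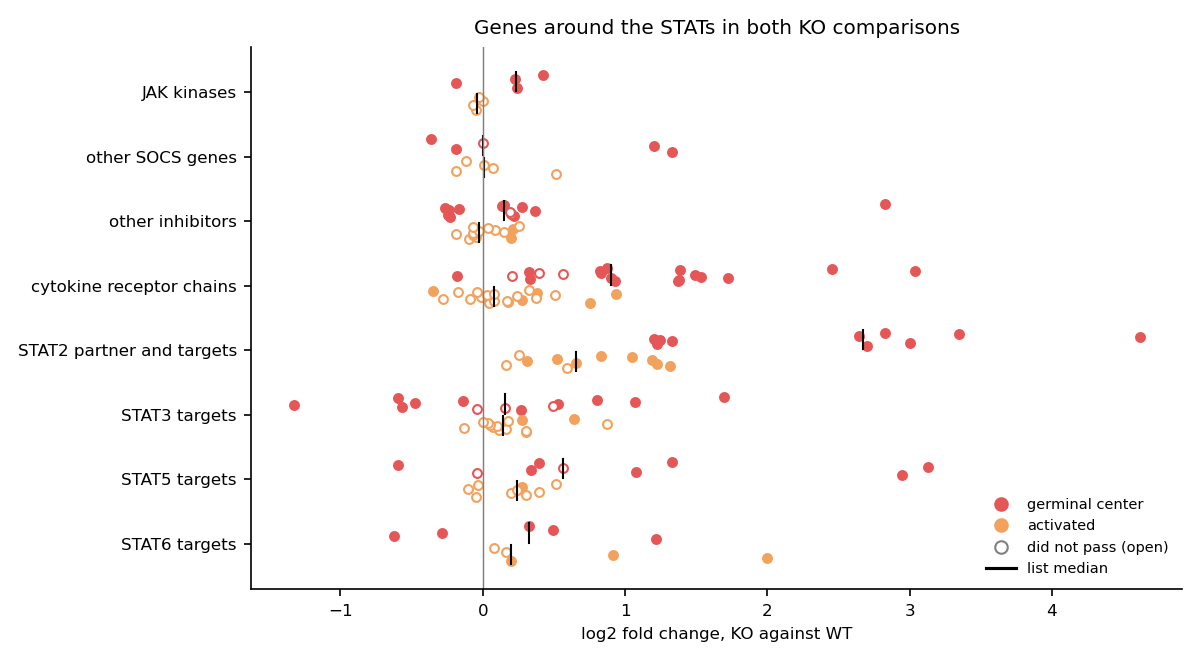
Each point is a gene of 1 list (vertical axis) with its log2 fold change of KO against WT (horizontal axis) in germinal center or activated B cells, filled for adjusted p under 0.05 and open otherwise, and black bars mark list medians. Cytokine receptor chains and STAT2 partner and target genes have medians of 0.90 and 2.67 in germinal center B cells and of 0.08 and 0.66 in activated B cells.

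Of the STAT2 partner and target genes, all 10 tested in germinal center B cells rose, with a median of 2.67, where 25.1% of all genes rose. WT counts were 11 and 10 for Mx1, 4 and 4 for Rsad2 and 3 and 8 for Ifit1. These passed the filter on low counts only through KO, so for them a rise was built into inclusion, and the median rests partly on them. Irf9, which encodes the STAT2 partner, was at 169 and 174 CPM in KO and 68.2 and 76.3 CPM in WT (1.25, SE 0.05, adjusted p = 3.2e-117), and Usp18, an inhibitor at the type I interferon receptor, rose by 2.83 (SE 0.22). Among activated libraries, where Stat2 did not pass, 8 of 11 rose and 3, among them Usp18 (0.26, adjusted p = 0.412), did not pass, with a median of 0.66 (4.85% of all genes rose). There Irf9 rose by 0.31 (SE 0.06, adjusted p = 0.00216), and DESeq2 called 5 of the 11. Without the second WT activated library edgeR also called 5.

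STAT3 target genes did not move together. In germinal center B cells 5 of 13 rose, 5 fell and 3 did not pass, with a median of 0.16, where 25.1% of all genes passed in each direction. Cdkn1a, 1 of the 5 that fell, had 6 and 9 counts in KO and 22 and 25 in WT. It passed the filter on low counts only through WT, so its fall was built in. Junb, of the AP-1 family, was at 383 and 364 CPM in KO and 179 and 177 CPM in WT (1.07, SE 0.04), and Myc rose by 0.80 (SE 0.06). Bcl6 (-0.57, SE 0.04), which specifies germinal center B cells, and the kinase gene Pim1 (-0.59, SE 0.04) fell. Prdm1, of the plasma cell program, rose by 1.69 (SE 0.17). In activated B cells 2 of 14 rose, Prdm1 (0.64, SE 0.12) and Pim1 (0.28, SE 0.06), and 12 did not pass, and DESeq2 called 1 of the 14. The KO effect on Pim1 differed between the cell types by -0.87 (SE 0.08, adjusted p = 6.31e-18).

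Of 9 STAT5 target genes other than the members, 6 rose, 1 fell and 2 did not pass in germinal center B cells, with a median of 0.57, where 25.1% of all genes passed in each direction. Osm (15 and 15 counts in KO, 1 and 3 in WT) and Socs2 (19 and 22 against 6 and 14) passed the filter on low counts only through KO. Bcl2, a survival gene, rose by 2.95 (SE 0.11) and Ccnd2, of cyclin D2, by 1.08 (SE 0.09), while Pim1 fell. In activated B cells 1 of the 9 passed, Pim1, which rose, and DESeq2 called 0 of the 9. By edgeR 5 had an unadjusted p under 0.05, a count that does not compare with shares at an adjusted p. All 5 STAT6 target genes passed in germinal center B cells, in both directions, where 50.2% of all genes passed. Fcer2a, of the low-affinity IgE receptor, rose from 339 and 339 to 797 and 781 CPM (1.22, SE 0.03), and Il4i1 (0.49, SE 0.04) and Il4ra (0.32, SE 0.04) rose. Ighg1 (-0.29, SE 0.03) and Ighe (-0.62, SE 0.16), the constant genes of IgG1 and IgE, fell. In activated B cells Ighg1 (0.92, SE 0.08), Ighe (2.0, SE 0.35) and Fcer2a (0.20, SE 0.05) rose and 2 did not pass. Ighe rests there on few reads, with WT counts of 19 and 6 against KO counts of 48 and 52. It passed the filter on low counts only through KO, so its rise was built in.

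Among inhibitors that are not members, Socs5 (1.20, SE 0.19) and Socs2 (1.33, SE 0.42) rose and Socs7 (-0.36, SE 0.10) and Socs4 (-0.19, SE 0.06) fell in KO germinal center B cells, and Socs6 did not pass. Socs5 was at 12.7 and 11.0 CPM in KO and 5.35 and 4.92 CPM in WT, far under the 56.4 to 63.1 CPM of activated B cells. Socs2 rests on 19 and 22 against 6 and 14 counts and passed the filter on low counts only through KO. DESeq2 called 2 of these 5 genes. In activated B cells 0 of the 5 passed by edgeR, DESeq2 or limma-voom, with 1 at an unadjusted p under 0.05. Of 13 phosphatase, PIAS and adaptor genes, 6 rose, 5 fell and 2 did not pass in germinal center B cells, where 25.1% of all genes passed in each direction, and DESeq2 called 7 of the 13. They include Ptpn6 (0.28, SE 0.03), of the phosphatase SHP-1, among those higher and Ptpn1 (-0.24, SE 0.04), a JAK phosphatase gene, among those lower. Ptpn6 also rose in activated B cells (0.21, SE 0.05, adjusted p = 0.0106), as did Cblb (0.20, SE 0.06, adjusted p = 0.0364), a ubiquitin ligase gene. The other 11 of the 13 did not pass there.

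Genes whose levels ran most like each member's were ranked by Pearson correlation of log2 CPM over the 8 libraries, among 9706 genes. All 8 points fall into 2 cell types and the genes share libraries, so these are descriptions without a test. Stat2 ran most like Ppp1r15a (0.995), Selenoo (0.992) and Helz2 (0.992). Stat3 ran most like Atp6v0e (0.998), Serp1 (0.997) and Pgk1 (0.997), and Stat4 like Sdc4, Mtdh (both 1.0 after rounding) and S100a10 (0.999). Socs3 had lower values, with Phf23 (0.978), Cdh17 (0.978) and Ift46 (0.973), and Stat5a the lowest, with Gna15 (0.898), Tmed2 (0.892) and Ift88 (0.852).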

How the data were processed

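RNA-seq was done on 8 mouse libraries. The authors deposited raw read counts for each gene, as whole numbers, with 5 summary entries that name no gene. Those entries stayed out of library sizes and tests, and reads assigned to no feature were 47.2% to 53.9% of all entries. The submitters' processing notes name Trimmomatic, DESeq2 and build mm10. Aligner, counter and strand setting were not given in the sources used here, so reads of overlapping genes on opposite strands may be mixed. Of 55401 identifiers, 54349 matched GENCODE M21 (GRCm38) with the same version, and exon lengths are unions of its exons.

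Counts were tested with edgeR 4.0.16 in R 4.3.3 (TMM, filterByExpr, quasi-likelihood F test, Benjamini-Hochberg over all genes), and passing means an adjusted p below 0.05. SE is the log2 fold change divided by the root of F. Each comparison used its own 4 libraries, and the difference of KO effects used all 8. CPM values use 1 TMM scaling over the 8 libraries. Alternatives were DESeq2 1.42.0, limma-voom (limma 3.58.1), other scalings and filters, a replicate block and leaving out each library. On simulated counts with 200 genes changed, edgeR recovered 83.3% of 2-fold and 63.4% of 1.5-fold changes for germinal center B cells (13350 genes), and 81.9% and 67.1% for activated B cells (14110 genes). Shares of false calls were 7.56% and 5.26%, above the adjusted p of 0.05 used as threshold. The simulation changed far fewer genes than the 50.2% that passed in germinal center B cells, so its rates need not hold there. Replicate counts differed by more than sampling noise (chi-square per degree of freedom 1.38 to 2.28), so no pair was counted as 1 library. Counting intervals are exact binomial (Cish ratio) or Wilson (Stat5a share).

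Members and gene lists were chosen with earlier results of these data known. Named genes are the members, Jmjd1c, up to 4 members of each list with the lowest p in a comparison, and the 3 genes most correlated with each member (mean count of at least 50), of which a part is printed. Il6ra, Il21r, Il12rb1, Il12rb2, Lifr, Il7r, Il13ra1, Ifit1 and Cdkn1a fall outside this rule and were named after their values were seen.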

Additional observations from a re-analysis of the deposited data

Results flagged for a closer look

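For 7 members the KO effect differed between germinal center and activated B cells by the test of the difference itself (edgeR, all 8 libraries, log2 scale). The differences, germinal center minus activated, were 2.08 for Stat4, 0.66 for Stat2, 0.47 for Stat6, 0.94 for Socs3, -0.33 for Stat5b, -0.20 for Stat3 and 2.66 for Cish. For Stat4, Stat2, Stat6 and Stat5b the difference passed in every alternative run. The Cish value is a fitted value against a WT germinal center group of 2 counts and bounds nothing. With 2 libraries per group, no search for a single outlying library was possible.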

How the results depend on the processing

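Of 532 values of single genes under alternatives, 505 kept their direction and their side of the threshold, 15 no longer passed, 2 newly passed and 10 changed sign. With DESeq2, 4342 genes passed in germinal center and 349 in activated B cells, and 3069 in the difference of KO effects, against 6698, 885 and 4685 by edgeR, and 1 member, Stat5b, passed as lower in the first and the last. With no filter on low counts 465 genes passed in activated B cells. In the WT comparison 1 member passed as higher with upper-quartile scaling, and 1 when at least 10 counts were required in every library, which removes Socs1.

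Leaving out each library, members passing as lower in germinal center B cells ran from 1 to 2, members passing in activated B cells from 0 to 1 (all as higher), and members passing in the difference from 4 to 7, with 3 to 5 higher and 1 to 2 lower. Signs changed only for members that did not pass. These were Socs1 in germinal center B cells (-0.042 to 0.084), in activated B cells (-0.28 to 1.16) and in the difference (-1.12 to 0.30), Cish (-0.028 to 0.37) and Stat4 (-0.060 to 0.14) in activated B cells, and Stat5a in the WT comparison (-0.10 to 0.023).

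Replicate numbers in the titles are shared between groups, but deviations of same-numbered libraries were hardly correlated (0.006 between germinal center groups, 0.05 between activated groups, -0.05 between WT groups). Such values cannot tell whether same-numbered libraries share animals or preparation, which no label states. With the replicate block 1388 genes passed in activated B cells, against 885 without it, and no member changed its call. With all 8 libraries in 1 fit Cish could be tested in germinal center B cells (2.84, adjusted p = 0.00881), as with no filter (2.84, adjusted p = 0.0264). Depth limits Cish and, in activated B cells, Socs1.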
